A study of Mus musculus with 16 samples.

Results

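The genes described here encode 10 proteins that modify, fold, trim or crosslink collagen: P4ha1, P4ha2, P4ha3, P4hb, Plod1, Plod2, Plod3, Serpinh1, Pcolce and Lox. They were chosen by name for their biochemical role, by a rule that uses no measured value although earlier results of these data were known, and make up 10 of the 45706 genes in the deposited count table. RNA was sequenced from ear skin of 8 males of the inbred strain C57Bl/6J, for which the labels list no transgene or treatment. Each mouse was clipped with a punch in the first ear at 24 months and in the second ear at 30 months, which gave 8 libraries per age and 16 in all. By the labels the exact ages were 23.8 to 24.4 months and 29.0 to 30.1 months, 5.0 to 6.3 months apart within an animal. The comparison asks how each gene changed within the same animal late in life. Since the second biopsy always came from the other ear, age and ear cannot be told apart.

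Fibrillar collagen is built as a precursor in the endoplasmic reticulum, secreted, trimmed and then assembled into fibrils. Prolyl 4-hydroxylase makes the hydroxyproline that keeps the triple helix stable, lysyl hydroxylases prepare lysines for sugar attachment and for crosslinks, and the chaperone HSP47 holds the folded helix until it leaves the compartment. Outside the cell the removal of the carboxy-terminal propeptide lets fibrils form, and lysyl oxidase starts the covalent crosslinks that give skin and cartilage their strength.

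The libraries held 22967222 to 36162431 reads on genes (medians 28877001 at 24 months and 29138399 at 30 months), and the labels name no sequencing batch. Values are given as CPM, the counts of a gene per 1000000 reads on genes after TMM scaling, which evens out differences in composition between libraries. Markers of the tissues of an ear were present at both ages. The 12 keratinocyte markers summed to 23441 to 36345 CPM, the 12 fibroblast markers to 2404 to 4824 CPM and the 16 cartilage markers to 227 to 538 CPM, and among all of these only the cartilage genes Matn1 (0 counts in 10 libraries) and Matn3 (0 counts in 1 library) were at 0 in any library. A whole ear mixes these cells, so fewer cells of a type and less RNA per cell cannot be told apart.

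None of the 10 genes differed between 24 and 30 months at an adjusted p under 0.05 (edgeR's quasi-likelihood test, blocked by mouse, adjusted over the 21526 genes tested), beside 0% of all genes tested. All 10 genes passed the filter on low counts. At an unadjusted p under 0.05 there was 1 member, P4ha1, which was lower at 30 months, beside 7.18% of all genes that were lower by that rule and 4.86% that were higher. DESeq2's Wald test gave an adjusted p for 9 of the members, all but P4ha3, and put 0 of the 9 past the threshold, beside 1.17% of all genes given an adjusted p, and P4ha1 alone under an unadjusted p of 0.05. In the fit 5 members had a negative and 5 a positive fold change, beside 48.3% of all genes that were lower and 51.7% that were higher, with a median of -0.05 on the log2 scale beside 0.01 for all genes tested.

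**Figure D1:**
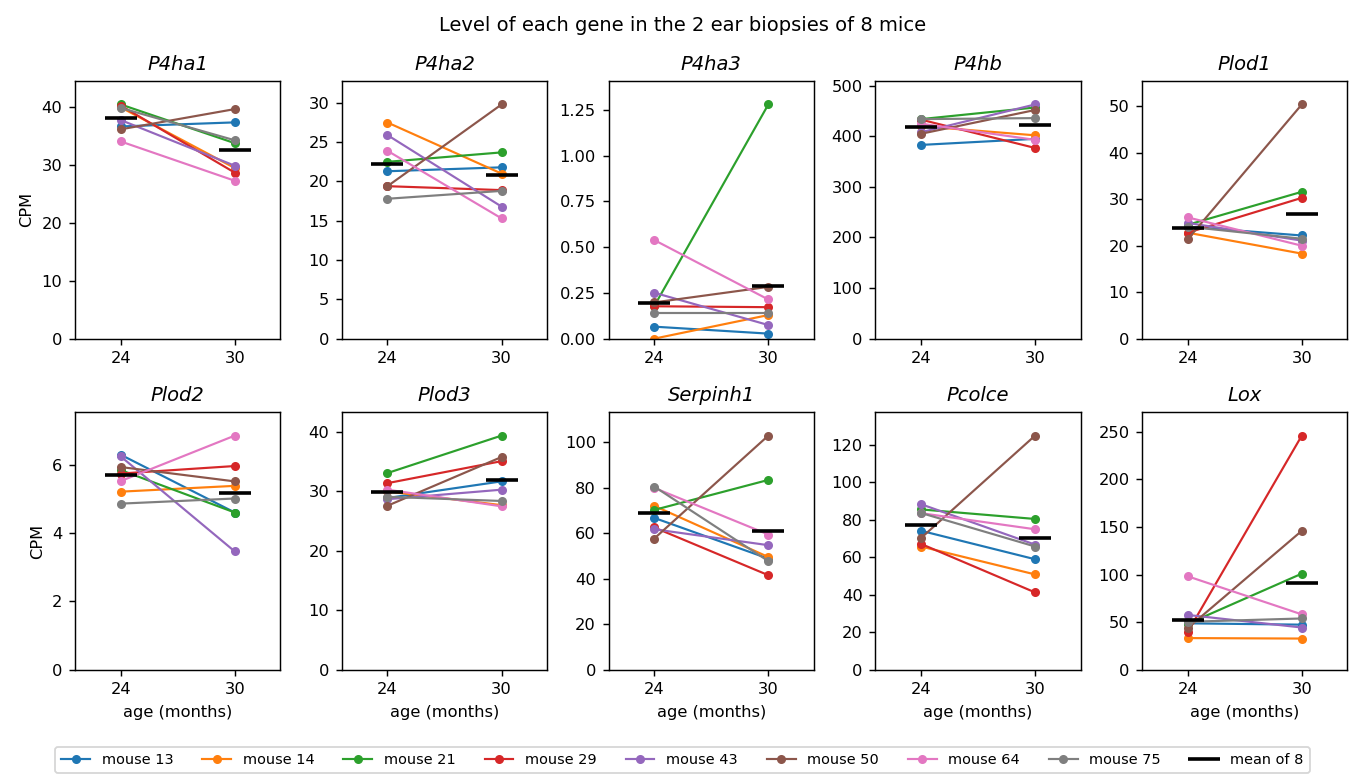
Level of each gene in CPM (vertical axes, each from 0) at 24 and 30 months, with 1 line per mouse and a black bar for the mean of 8 mice. The lines of P4hb stay between 377 and 463 CPM, whereas those of Lox spread from 33.3 to 98.2 CPM at 24 months to 32.8 to 246 CPM at 30 months.

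The promoters of P4ha1, Serpinh1 and Pcolce are shown because these were the members with a lower level at 30 months in at least 6 of the 8 mice, as were 21.8% of all genes tested. Each sequence holds the 250 bases before the RefSeq transcription start (build GRCm38.p6), written 5′ to 3′ on the strand of the gene. For P4ha1 and Serpinh1 the window adjoins the annotated gene. For Pcolce it lies inside the annotated gene, which starts at base 137613784 on its strand, so the RefSeq start differs from the annotated one. Capitals mark the GC box GGGCGG and the hypoxia response cores ACGTG and GCGTG, each on either strand.
P4ha1, chr10:59323046-59323295, plus strand: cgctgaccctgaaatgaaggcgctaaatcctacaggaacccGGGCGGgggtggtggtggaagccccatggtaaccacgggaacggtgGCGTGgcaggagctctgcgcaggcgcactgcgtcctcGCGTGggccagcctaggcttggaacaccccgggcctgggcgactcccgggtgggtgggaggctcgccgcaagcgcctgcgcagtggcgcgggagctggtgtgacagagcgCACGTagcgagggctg
Serpinh1, chr7:99353240-99353489, minus strand: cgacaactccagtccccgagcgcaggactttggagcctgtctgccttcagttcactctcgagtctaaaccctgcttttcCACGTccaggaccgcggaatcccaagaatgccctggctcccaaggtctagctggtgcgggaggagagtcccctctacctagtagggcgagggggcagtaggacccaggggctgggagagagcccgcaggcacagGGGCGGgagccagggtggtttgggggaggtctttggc
Pcolce, chr5:137611405-137611654, minus strand: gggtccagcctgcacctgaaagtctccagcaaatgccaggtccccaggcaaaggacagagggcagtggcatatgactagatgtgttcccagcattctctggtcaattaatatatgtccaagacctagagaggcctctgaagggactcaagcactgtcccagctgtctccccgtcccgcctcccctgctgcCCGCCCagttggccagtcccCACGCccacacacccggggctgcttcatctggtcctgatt
P4ha1 holds 1 GC box and 3 hypoxia cores, and Serpinh1 and Pcolce hold 1 of each. Of 32841 RefSeq promoters of the same length, 32.7% held at least 1 GC box and 38.6% at least 1 hypoxia core. These shares are no reference for 3 cores in 1 promoter. G and C made up 69.6% of the window of P4ha1, 63.6% of that of Serpinh1 and 58.8% of that of Pcolce. No comparison with promoters of like GC content was made. Neither motif was particular to the genes shown. Hypoxia cores also lay before P4ha2, P4hb, Plod1 and Plod3, and GC boxes before P4ha2, P4ha3, P4hb and Plod1. The TATA box TATAAA, the CCAAT box CCAAT and the heat shock element GAANNTTC, searched on both strands and held by 12.4%, 33.9% and 6.70% of promoters, have no match in these 3 windows. Of the 10 genes, 8 had an entry in the promoter table. Those without an entry were Plod2 and Lox.

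P4ha1 (ENSMUSG00000019916, chr10:59323296-59373304, plus strand of GRCm38) encodes the main catalytic subunit of prolyl 4-hydroxylase, and its promoter is the first of the sequences shown. Its level ranged from 34.1 to 40.5 CPM at 24 months (median 38.9) and from 27.3 to 39.7 CPM at 30 months (median 31.9). It was lower at 30 months in 6 of 8 mice and higher in mice 13 and 50, and the ranges of the 2 ages overlapped. The mean went from 38.2 ± 2.38 to 32.6 ± 4.44 CPM (SD, n = 8), a log2 fold change of -0.24 (SE 0.0781), with an unadjusted p of 0.0119 and an adjusted p of 0.309 in edgeR. For P4ha1 the exact permutation test that flips the signs of the 8 within-mouse changes gave p = 0.0312 (two-sided), where the smallest possible p is 0.00781. After adjustment over the 10 members this permutation p was 0.312. The unadjusted edgeR p of P4ha1 stayed between 0.00278 and 0.0399 when each mouse was left out in turn.

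P4ha2 (ENSMUSG00000018906, chr11:54100095-54131665, plus strand) encodes a second catalytic subunit of the same enzyme. Its level was 17.8 to 27.5 CPM at 24 months (median 21.9) and 15.3 to 29.8 CPM at 30 months (median 20.0), higher in 4 mice and lower in 4. The log2 fold change was -0.11 (SE 0.134, adjusted p = 0.748 in edgeR). The largest changes were opposite in sign, 0.62 in mouse 50 and -0.64 in mouse 64. Leaving out mouse 50 moved the log2 fold change of P4ha2 to -0.22, and leaving out mouse 64 or 43 moved it to -0.04 or -0.03.

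P4ha3 (ENSMUSG00000051048, chr7:100285520-100319699, plus strand), the third catalytic subunit, was near the limit of detection in ear skin. It had 0 to 16 counts per library at 24 months and 1 to 30 counts at 30 months. The 30 counts were in mouse 21 (1.28 CPM, from 0.178 CPM at 24 months), and the next highest library at 30 months was mouse 50 with 0.283 CPM. No change was called in this gene (log2 fold change 0.30, SE 0.555, adjusted p = 0.841 in edgeR). Its reads were few, and its change differed in sign between mice, from -1.16 in mouse 43 to 2.45 in mouse 21 on the log2 scale.

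P4hb (ENSMUSG00000025130, chr11:120560298-120573253, minus strand) encodes protein disulfide isomerase, which serves as the non-catalytic subunit of prolyl 4-hydroxylase and also forms disulfide bonds in many other secreted proteins. It was the steadiest of the 10 genes, at 383 to 434 CPM at 24 months (median 422) and 377 to 463 CPM at 30 months (median 419). Its means were 418 ± 18.3 and 422 ± 33.8 CPM (SD, n = 8), with a log2 fold change of 0.01 (SE 0.0633, adjusted p = 0.951 in edgeR). The sign of that value turned to -0.01 without mouse 43 or without mouse 50.

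Plod1 (ENSMUSG00000019055, chr4:147909753-147936767, minus strand) encodes lysyl hydroxylase 1, which acts on lysines in the helical part of collagen. At 24 months the 8 mice lay within 21.4 to 26.1 CPM (median 24.1), and at 30 months within 18.3 to 50.4 CPM (median 21.8). Of the 8 mice, 5 were lower at 30 months, and the highest value was that of mouse 50, followed by mouse 21 (31.6 CPM) and mouse 29 (30.3 CPM). The log2 fold change of Plod1 was 0.09 (SE 0.168, adjusted p = 0.837 in edgeR), and it was -0.06 without mouse 50.

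Plod2 (ENSMUSG00000032374, chr9:92542223-92608428, plus strand) encodes the lysyl hydroxylase that acts on the telopeptides, the ends of the collagen chain where crosslinks start. Its level was 4.86 to 6.29 CPM at 24 months (median 5.79) and 3.46 to 6.85 CPM at 30 months (median 5.19). The change differed in sign between mice, from -0.84 in mouse 43 to 0.31 in mouse 64, and the log2 fold change was -0.16 (SE 0.131, adjusted p = 0.636 in edgeR), or -0.06 without mouse 43. It was the only member that was lower in mouse 50 and the only one that was higher in mouse 64. A further transcript on the opposite strand, Gm38391, overlaps 6.42% of its exon length.

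Plod3 (ENSMUSG00000004846, chr5:136987019-136996648, plus strand) encodes lysyl hydroxylase 3, which also adds the sugars to hydroxylysine. Its level was 27.6 to 33.1 CPM at 24 months (median 29.6) and 27.5 to 39.4 CPM at 30 months (median 31.0), higher in 5 mice and lower in 3. The log2 fold change was 0.09 (SE 0.0699, adjusted p = 0.622 in edgeR). The gene Znhit1 on the opposite strand overlaps 11.7% of the exon length of Plod3, and reads from the pair cannot be told apart where the counting did not use strand.

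Serpinh1 (ENSMUSG00000070436, chr7:99345376-99353239, minus strand) encodes HSP47, the collagen chaperone, whose promoter is the second of the sequences shown. Its level was 57.7 to 80.6 CPM at 24 months (median 68.5) and 41.6 to 103 CPM at 30 months (median 52.2). It was lower at 30 months in 6 of 8 mice, by 0.17 to 0.75 on the log2 scale, and higher in mouse 21 (from 70.3 to 83.5 CPM) and mouse 50 (from 57.7 to 103 CPM). Mouse 50 was thus the lowest of the 8 mice at 24 months and the highest at 30 months. The log2 fold change of Serpinh1 was -0.23 (SE 0.16, adjusted p = 0.569 in edgeR).

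Pcolce (ENSMUSG00000029718, chr5:137605103-137613784, minus strand) encodes the procollagen C-proteinase enhancer, a secreted protein that speeds the removal of the carboxy-terminal propeptide, and its promoter is the third of the sequences shown. Its level was 65.8 to 88.4 CPM at 24 months (median 78.9) and 41.3 to 125 CPM at 30 months (median 66.3). In 7 of 8 mice it was lower at 30 months, which held for 8.33% of all genes tested, and mouse 50 was the exception with a change from 70.3 to 125 CPM. The means were 77.3 ± 8.99 and 70.5 ± 25.3 CPM (SD, n = 8) and the log2 fold change was -0.20 (SE 0.138, adjusted p = 0.577 in edgeR).

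Mouse 50 was singled out after its values were seen, as the mouse in which Pcolce and Serpinh1 rose most. A fit without it therefore describes its weight and does not test these genes. Without mouse 50, Pcolce and Serpinh1 joined P4ha1 under an unadjusted p of 0.05, beside 7.12% of all genes tested that were lower by that rule without this mouse. The log2 fold changes were then -0.34 for Pcolce (adjusted p = 0.213), -0.38 for Serpinh1 (adjusted p = 0.278) and -0.29 for P4ha1 (adjusted p = 0.236), all from edgeR fitted to the other 7 mice. The count past the adjusted threshold remained 0 of 10, beside 0% of all genes tested without this mouse. In each fit that left out another mouse, P4ha1 was the only member under an unadjusted p of 0.05 in edgeR.

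Lox (ENSMUSG00000024529, chr18:52516067-52529867, minus strand) encodes lysyl oxidase, the copper enzyme that oxidises lysines of collagen and elastin so that they can crosslink. Its level was 33.3 to 98.2 CPM at 24 months (median 48.5) and 32.8 to 246 CPM at 30 months (median 56.0). At 30 months it was higher in mouse 29 (from 39.7 to 246 CPM), mouse 50 (from 43.8 to 146 CPM), mouse 21 (from 48.3 to 101 CPM) and, slightly, mouse 75 (from 50.4 to 53.9 CPM). It was lower in the other 4 mice, most in mouse 64 (from 98.2 to 58.2 CPM), and the ranges of the 2 ages overlapped. The means were 52.5 ± 19.9 and 91.1 ± 72.6 CPM (SD, n = 8) and the log2 fold change was 0.51 (SE 0.353, adjusted p = 0.574 in edgeR). Without mouse 29 the log2 fold change of Lox was 0.24.

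The biopsies with high Lox also differed in other ways, whose part in the Lox values was not tested. In the 3 mice with the most Lox at 30 months the 8 endothelial markers summed to 137 CPM at 24 months and 334 CPM at 30 months (mouse 29), to 148 and 342 CPM (mouse 50) and to 129 and 303 CPM (mouse 21). In mouse 29 the 8 fat cell markers summed to 281 and 1177 CPM, whereas the 18 collagen chain genes summed to 5030 and 3859 CPM and the fibroblast markers to 3424 and 2404 CPM. In mouse 21 the collagen chain genes summed to 6608 and 7438 CPM, the fibroblast markers to 3430 and 2574 CPM and the fat cell markers to 245 and 365 CPM. In mouse 50 the 12 immune cell markers summed to 603 and 1692 CPM, the fibroblast markers to 2942 and 4824 CPM and the collagen chain genes to 4836 and 13438 CPM. Such sums also rose in mice where Lox did not. In mouse 13 the endothelial markers summed to 122 and 229 CPM, while Lox was at 48.8 and 47.4 CPM. In mouse 64 the fat cell markers summed to 235 and 512 CPM, while Lox went from 98.2 to 58.2 CPM. In mouse 64 at 24 months, the library with the highest Lox at that age, the collagen chain genes summed to 7796 CPM and 15 ligands and targets of TGF-beta, the growth factor that drives collagen production, to 2992 CPM, each the highest of the 8 libraries of that age.

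**Figure D2:**
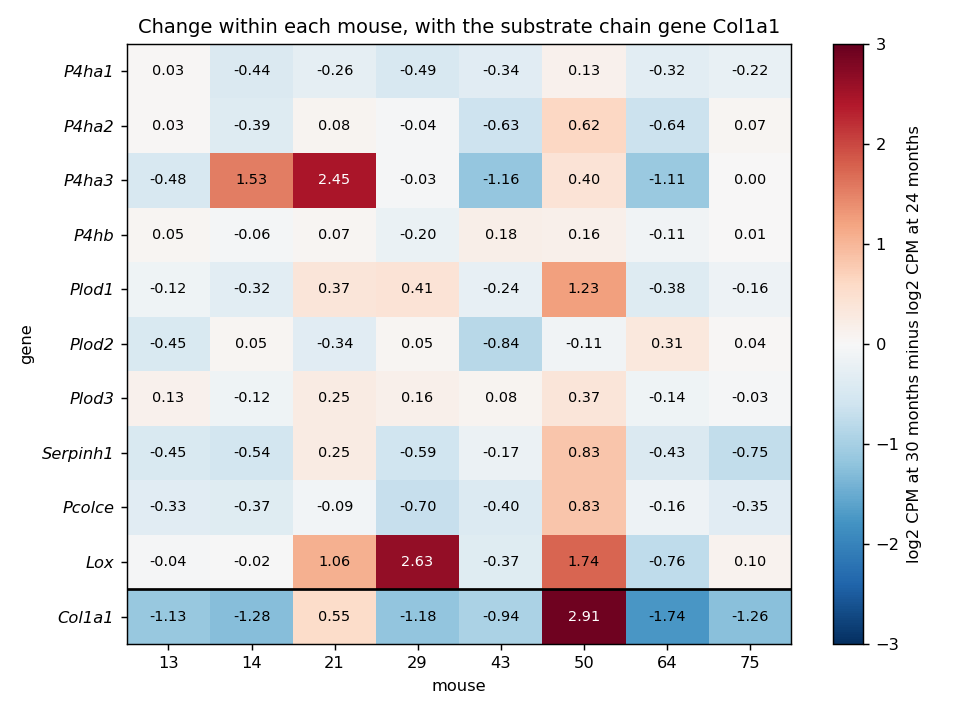
Change of each gene (rows) in each mouse (columns), as log2 CPM at 30 months minus log2 CPM at 24 months, with red for higher and blue for lower at 30 months and the value written in each cell. Mouse 50 is red in 9 of the 10 enzyme rows and mouse 64 blue in 9, and the row under the line gives the collagen chain gene Col1a1.

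Read by animal, the members differed in direction. In mouse 50, 9 of the 10 genes were higher at 30 months (median change 0.51 on the log2 scale), beside 47.2% of all genes tested in that mouse. In mouse 21, 7 of 10 were higher (median 0.16), beside 48.2% of all genes. In mouse 64, 9 of 10 were lower (median -0.35), and 1 was higher, beside 50.9% of all genes that were higher. In mouse 14 (median -0.22) and in mouse 43 (median -0.36) 2 of 10 were higher, beside 49.9% and 50.4% of all genes. In mice 13, 29 and 75 the medians were between -0.08 and -0.02, and 4, 4 and 5 of 10 were higher, beside 47.7%, 49.4% and 50.5% of all genes. The summed level of the 10 genes, most of which is P4hb, ranged from 687 to 807 CPM at 24 months and from 637 to 987 CPM at 30 months, with both the lowest value at 24 months and the highest at 30 months in mouse 50.

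Col1a1, which encodes the main chain of type I collagen and so the main substrate of these enzymes, differed in direction between the mice. It went from 397 to 2989 CPM in mouse 50 and from 661 to 970 CPM in mouse 21. In the other 6 mice it was lower at 30 months, with changes from -1.74 in mouse 64 to -0.94 in mouse 43 on the log2 scale. The 2 mice with more Col1a1 were the 2 in which Serpinh1 was higher. Since the changes of Col1a1 fell into separate sets, no correlation over all 8 mice is given. Within the 6 mice in which it was lower, Pearson's r between the change of a member and the change of Col1a1 ran from -0.83 for Plod2 (Spearman's rho -0.83) to 0.73 for Plod3 (rho 0.77), with exact permutation p-values of 0.0403 and 0.0583 for r and 0.0583 and 0.103 for rho. After adjustment over the 10 relations computed, both r had p = 0.292 and both rho p = 0.514 in the exact permutation test, where the smallest possible unadjusted p is 0.00278. Plod2 and Plod3 were singled out after these values were seen.

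**Figure D3:**
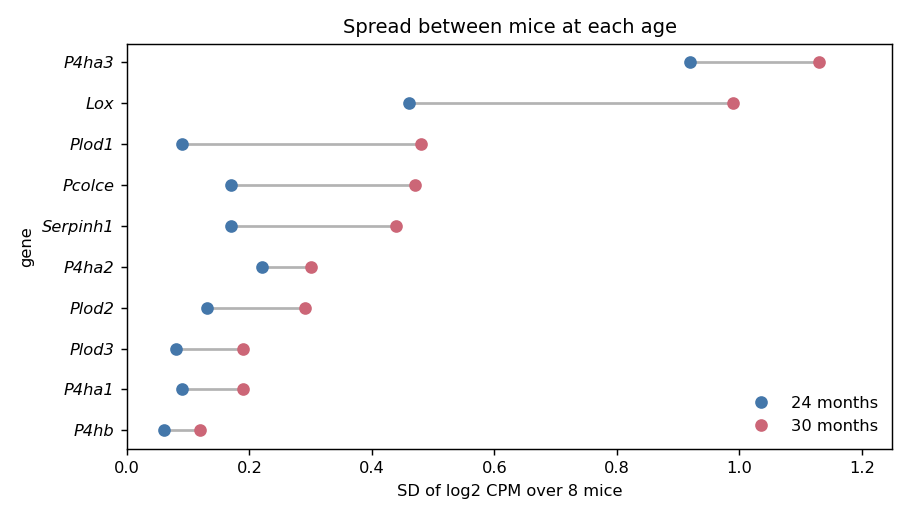
Standard deviation of log2 CPM over 8 mice (horizontal axis, from 0) for each gene at 24 months (blue) and 30 months (red), joined by a line. The red point lies to the right of the blue one for all 10 genes, with the largest ratio in Plod1 (0.09 and 0.48).

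The spread between mice was larger at 30 than at 24 months for all 10 genes, beside 78.0% of all genes tested. The ratio of the SD of log2 CPM at 30 months to that at 24 months had a median of 2.22 over the 10 genes and of 1.41 over all genes tested. It was 5.46 for Plod1, 2.80 for Pcolce and 2.54 for Serpinh1, 3 genes whose highest value at 30 months was in mouse 50. P4ha1 and P4ha2 also had their highest value at 30 months in mouse 50, with smaller ratios of 2.11 and 1.38. P4hb kept the smallest SD at both ages, 0.06 and 0.12 on the log2 scale. This is a description, with no test of the difference.

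Compared per exon length, as RPKM, the 10 genes lay at widely different levels. P4hb led with 146 ± 6.38 RPKM at 24 months and 147 ± 11.8 RPKM at 30 months (SD, n = 8), followed by Serpinh1 (28.2 ± 3.43 and 25.0 ± 8.64), Pcolce (20.2 ± 2.35 and 18.4 ± 6.61), Lox (11 ± 4.16 and 19.1 ± 15.2) and P4ha1 (9.28 ± 0.579 and 7.92 ± 1.08). Plod3 (6.62 ± 0.385 and 7.08 ± 0.969 RPKM) lay above Plod1 (3.53 ± 0.216 and 3.98 ± 1.57) and P4ha2 (3.56 ± 0.546 and 3.33 ± 0.731), and Plod2 (1.06 ± 0.0912 and 0.959 ± 0.188) and P4ha3 (0.0618 ± 0.0511 and 0.0926 ± 0.130) came last. The order was set by the mean log2 RPKM of both ages, so the following counts of mice describe it and do not test it. Pcolce lay above Lox in 7 of 8 mice, although the mean of Lox was the higher at 30 months, and Lox lay above P4ha1 in 7 of 8 mice. Plod1 lay above P4ha2 in 6 of 8 mice, by a mean of 0.10 on the log2 scale. This mean difference was not told from 0 (two-sided exact permutation test that flips signs, p = 0.258). For the other neighbours the order held in 8 of 8 mice.

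**Figure D4:**
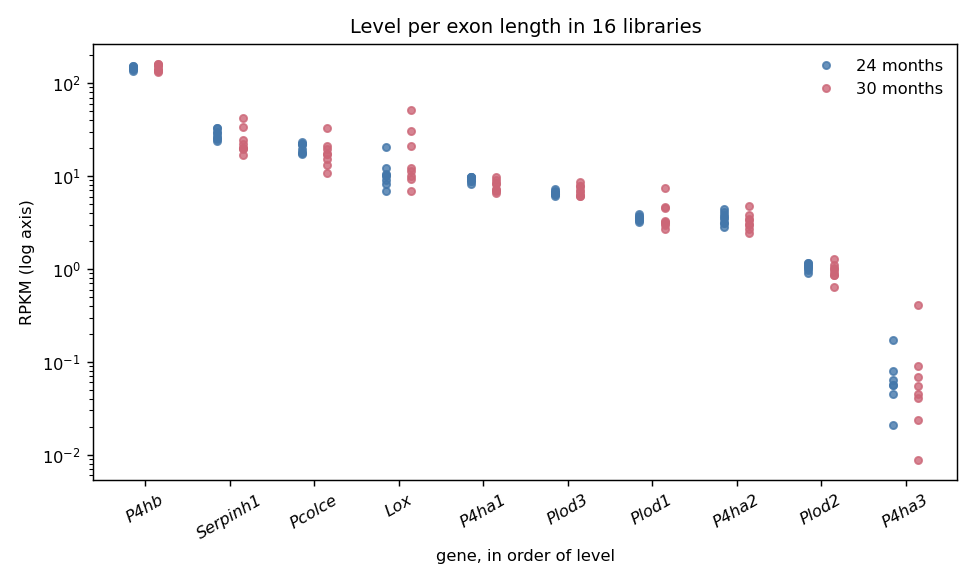
Level per exon length (RPKM, log axis) of the 10 genes in order, with 1 point per library in blue for 24 months and red for 30 months. The single library with 0 counts of P4ha3 cannot be drawn on the log axis, and P4hb lies above all other genes in every library, at 132 to 162 RPKM.

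Shares within an enzyme family were computed after single values had been seen. P4ha1 made up 72.0 ± 3.48% of the summed RPKM of the prolyl 4-hydroxylase catalytic subunits at 24 months and 70.1 ± 2.99% at 30 months (SD, n = 8), and P4ha2 nearly all of the rest (27.5 ± 3.34% and 29.2 ± 2.53%). Among the lysyl hydroxylases Plod3 made up 59.1 ± 1.64% and 59.6 ± 4.95%, Plod1 31.5 ± 1.42% and 32.2 ± 5.71%, and Plod2 9.46 ± 0.892% and 8.21 ± 2.22%. Lox made up 31.2 ± 5.48% of the lysyl oxidase family at 24 months and 40.9 ± 14.3% at 30 months. Its share was higher at 30 months in 7 of 8 mice, although its CPM was higher in only 4. The share rose while the CPM of Lox fell in mouse 13 (33.7% to 34.3%), mouse 14 (23.9% to 26.9%) and mouse 43 (28.9% to 33.3%). In mouse 29 the share of Lox went from 31.7% to 71.7%, in mouse 50 from 29.1% to 47.6% and in mouse 21 from 27.9% to 46.0%, whereas in mouse 64 it went from 42.5% to 33.7%. The same exact permutation test on the share of Lox gave p = 0.125 (0.503 after adjustment over 11 shares), so the mean change was not told from 0. The paralogue Loxl4 held 31.4 ± 5.72% and 26.5 ± 8.63% (exact permutation p = 0.258).

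**Figure D5:**
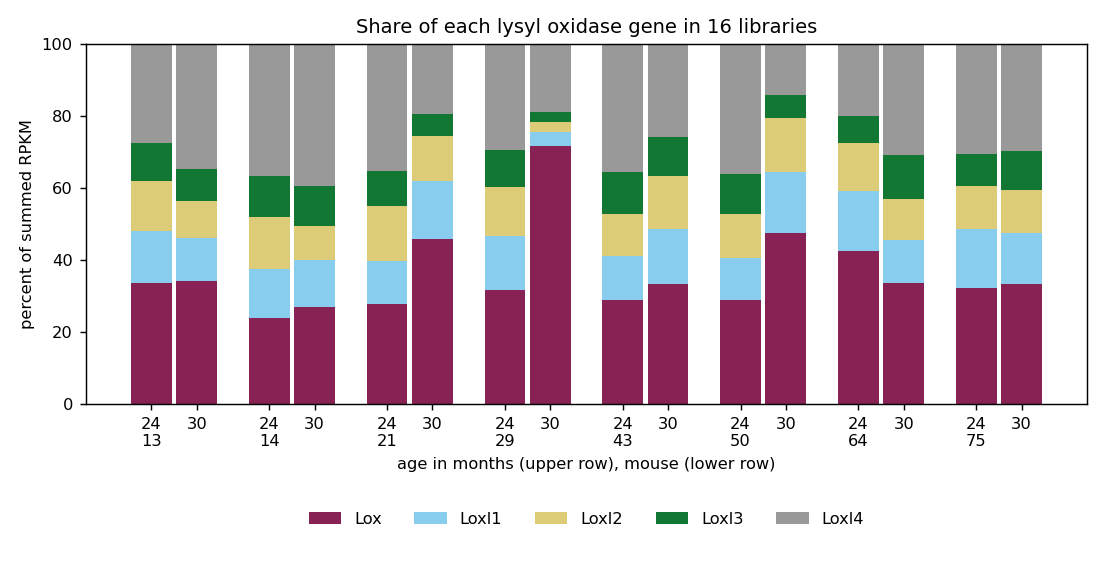
Percent of the summed RPKM of the 5 lysyl oxidase genes (vertical axis) in the 16 libraries, with a pair of bars per mouse for 24 and 30 months and a colour for each gene. Lox, at the bottom of each bar, takes 71.7% in mouse 29 at 30 months, and its share is higher at 30 months in every mouse but mouse 64. The CPM of Lox was higher at 30 months in only 4 of the 8 mice.

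A further 24 genes of collagen maturation were read beside the members, of which 23 were tested (Tll2 did not pass the filter). None passed the adjusted threshold in edgeR. At an unadjusted p under 0.05, 4 of the 23 were lower (P3h3, Tll1, Colgalt1 and Adamts3), beside 7.18% of all genes tested, and 0 were higher. The median log2 fold change was -0.14, with 18 genes lower and 5 higher, beside 48.3% of all genes that were lower and 8.33% that were lower in at least 7 of 8 mice. P3h3, a prolyl 3-hydroxylase, was lower in 7 of 8 mice (23.5 ± 2.43 and 18.6 ± 3.67 CPM, log2 fold change -0.35, adjusted p = 0.282). Tll1, a proteinase that removes the propeptide as its relative BMP1 does, was also lower in 7 of 8 mice (14.5 ± 3.62 and 9.44 ± 2.23 CPM, log2 fold change -0.62, adjusted p = 0.288). Colgalt1 adds galactose to hydroxylysine, and Adamts3 removes the amino-terminal propeptide.

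Of 18 collagen chain genes, 16 had a negative log2 fold change, beside 48.3% of all genes tested. Their median of -0.22 was -0.33 without mouse 50, -0.13 without mouse 29, -0.12 without mouse 64 and -0.05 with no replicate block. With all 8 mice and the block, 0 passed the adjusted threshold and 1 was under an unadjusted p of 0.05, Col16a1 (log2 fold change -0.20, adjusted p = 0.402). The next was Col7a1, which forms the anchoring fibrils of the skin (-0.24, adjusted p = 0.436). Col1a1 had a log2 fold change of -0.64 (SE 0.457, adjusted p = 0.584). The collagen chain, enzyme and fibroblast lists share the same 16 biopsies and so are not independent of the members.

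Regulators and cell types were read from lists in the same fit, and 0 genes of any list passed the adjusted threshold. The counts below stand beside 51.7% of all genes tested that were higher and 48.3% that were lower. Under an unadjusted p of 0.05 in edgeR, 4.86% of all genes were higher and 7.18% lower. Of 18 target genes of the hypoxia factor HIF, which is known to act on several of the hydroxylases, 14 were higher and 4 lower (median 0.10), with 1 under an unadjusted p of 0.05, Adm (log2 fold change 0.46, adjusted p = 0.415), followed by Pfkfb4 (0.14, adjusted p = 0.438). Of 15 chaperone genes of the endoplasmic reticulum, 6 were higher and 9 lower (median -0.01), with Pdia4 at -0.20 (adjusted p = 0.366) and Hyou1 at -0.15 (adjusted p = 0.529). Of the 15 TGF-beta ligands and targets, 7 were higher and 8 lower (median -0.02), with 2 higher and 1 lower under an unadjusted p of 0.05. Cyr61, a matrix protein induced by TGF-beta, was higher in 7 of 8 mice, as were 6.49% of all genes in at least 7 (log2 fold change 0.77, adjusted p = 0.24), and the receptor gene Tgfbr2 in 6 of 8 (0.27, adjusted p = 0.34). The lower gene was Ltbp2, which encodes a fibrillin-associated matrix protein, lower in 7 of 8 mice (-0.53, adjusted p = 0.413).

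The make-up of the biopsies was read in the same way. All 15 tested cartilage genes were lower at 30 months in the fit (median -0.45), beside 48.3% of all genes, and 8 of the 15 were lower under an unadjusted p of 0.05, beside 7.18% of all genes, among them Col2a1 (log2 fold change -0.64, lower in 8 of 8 mice, adjusted p = 0.141) and Col11a1 (-0.46, 8 of 8 mice, adjusted p = 0.222). The 8 endothelial genes were all higher (median 0.51), beside 51.7% of all genes, and 4 of them were under an unadjusted p of 0.05, beside 4.86% of all genes that were higher by that rule, with Emcn at 0.86 (adjusted p = 0.224) and Kdr at 0.51 (adjusted p = 0.288). Of 12 keratinocyte genes 10 were lower (median -0.24), and 5 of the 12 were lower under an unadjusted p of 0.05 (beside the same 48.3% and 7.18% of all genes), including Dsg1a (-0.46, adjusted p = 0.279), whereas Krt1 was higher in 8 of 8 mice (1.01, adjusted p = 0.222). The fibroblast list had a median of -0.03, with 6 genes higher and 6 lower, and Fn1 (-0.60, adjusted p = 0.321) and Dpt (-0.38, adjusted p = 0.592) at its head.

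The sums of the remaining lists differed widely between biopsies. The 12 skeletal muscle markers summed to 1301 and 10589 CPM in mouse 13 and to 13335 and 1701 CPM in mouse 43 (median log2 fold change 0.88, or 0.44 with no replicate block and 1.33 without mouse 43, with Actn3 at 2.69 and Myh4 at 1.83, adjusted p = 0.444 and 0.499). The fat cell markers had a median of 0.31 (0.12 without mouse 64, 0.13 without mouse 29 and 0.58 without mouse 43), with Plin4 at 0.47 (adjusted p = 0.366) and Fabp4 at 0.71 (adjusted p = 0.515), and the immune markers a median of -0.02, with Cd14 at 0.41 (adjusted p = 0.48). The part of these shifts in the levels of the 10 genes was not tested.

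The genes whose level most followed the mean log2 CPM of the 10 members over the 16 libraries were Col5a2 (Pearson's r 0.94), Fbln2 (0.91), Osr1 (0.91), Mdk-ps1 (0.90) and Sparc (0.90). Col5a2 encodes a chain of type V collagen, Fbln2 a matrix glycoprotein, Osr1 a zinc finger transcription factor and Sparc a collagen-binding protein. Mdk-ps1 is a pseudogene whose reads may belong to its parent gene. The 16 points come in pairs from 8 mice and share library depth and tissue make-up, so these values are a description. P4ha3 and Lox, the members with the largest SD of log2 CPM, weigh most in that mean. Although each member is part of the mean, its own r with it was as low as 0.19 for Plod2, 0.21 for P4ha1 and 0.36 for P4hb. The highest was 0.86 for Plod1, so the mean does not stand for every member.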

How the data were processed

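Ear biopsies were processed with Illumina's TruSeq RNA kit v2. Per the labels' processing notes, the authors used CASAVA 1.8.4, TopHat2 2.1.0 and HTSeq 0.6.1p1 with the mouse build mm10 (GRCm38). The deposited values are unnormalized counts of reads per gene, 1 column per library. Whether counting used strand is not given in the sources used here. The 5 summary lines that name no gene (18.7% to 21.1% of a library) were left out.

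Differential expression was assessed with edgeR 4.0.16 under R 4.3.3 (TMM, filterByExpr, quasi-likelihood test) with mouse and age as terms, and Benjamini-Hochberg adjustment over 21526 genes with a threshold of 0.05. DESeq2 1.42.0 was an alternative, as were other scalings, no filter, no block, age in months and each mouse left out. Libraries were paired by the animal number in the titles. Deviations from the age means correlated between -0.429 and 0.32 within a mouse (median -0.023) and with a median of -0.005 between mice. The log2 CPM has a prior count of 2. RPKM used GENCODE M21 exon lengths, with a pseudocount of 0.1 on the log2 scale. Sign-flip tests ran over all 256 sign patterns. The relation to Col1a1 was planned over 8 mice and is given within 6.

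The members and all lists were chosen with earlier results of these data known. Named genes are the 10 members, up to 2 genes of each other list with the smallest unadjusted p, any past the adjusted threshold in edgeR, and the 5 genes most correlated with the members. Colgalt1, Adamts3, Ltbp2, Col1a1, Loxl4, Matn1, Matn3, Tll2 and overlapping genes were named beyond that rule. For the immune list, 1 gene that the rule names is not reported here. Each library is a separate biopsy, 1 per ear.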

Additional observations from a re-analysis of the deposited data

Results flagged for a closer look

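Of 30 sets of 8 values examined (each gene at 24 months, at 30 months and as a change within mice), 6 had 1 value far from the other 7. About 1.5 would be flagged by chance among independent sets of normally distributed values. The sets here are not independent, since each change is made from the values at both ages, so 6 beside 1.5 is not a test. At 30 months mouse 50 stood apart for Plod1 (50.4 CPM) and Pcolce (125 CPM), and for the change of Pcolce (0.83 on the log2 scale, when the other 7 mice were lower at 30 months). P4ha3 stood apart in mouse 64 at 24 months (0.539 CPM) and in mouse 21 at 30 months (1.28 CPM), on 16 and 30 counts. Lox stood apart in mouse 64 at 24 months (98.2 CPM). In mouse 50 the collagen chain genes went from 4836 to 13438 CPM and the immune markers from 603 to 1692 CPM, and their part in these values was not tested.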

How the results depend on the processing

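No member passed the adjusted threshold under any alternative. With no replicate block the number of genes past it went from 0 to 3, genes higher at 30 months under an unadjusted p of 0.05 from 1047 to 1708, and members under that p from 1 to 2, since Lox had a log2 fold change of 0.80 (adjusted p = 0.31 in edgeR). DESeq2's Wald test gave 228 genes past the threshold, or 1.17% of all genes given an adjusted p. The cause was not tested. Of these genes 7 were in the lists other than the members. They are not named here, and no result about the lists is read from this count. The immune median was 0.21 with no replicate block and 0.02 with age in months. Over fits without each mouse in turn it ran from -0.17 to 0.11, the fibroblast median from -0.14 to 0.04, the median of ER chaperones from -0.04 to 0.02 and that of TGF-beta genes from -0.04 to 0.01. In those fits P4hb ran from -0.01 to 0.05, P4ha2 from -0.22 to -0.03, P4ha3 from 0.13 to 0.58, Plod2 from -0.23 to -0.06, Plod3 from 0.05 to 0.12, Serpinh1 from -0.38 to -0.15, Pcolce from -0.34 to -0.12, Lox from 0.24 to 0.70, Plod1 from -0.06 to 0.16 and the members under an unadjusted p of 0.05 from 1 to 3, the highest without mouse 50. Genes under that p ran lower without mouse 21 (998 lower at 30 months, from 1546) and higher without mouse 43 (1926 higher, from 1047). P4ha3 was not tested without mouse 21 or mouse 64, where it did not pass the filter, and DESeq2 gave it no adjusted p. With total counts alone the relation of Col1a1 to Plod3 within 6 mice had r = 0.80 (adjusted exact permutation p = 0.0417) and that to P4ha3 r = -0.01. Spearman's rho for Plod3 was then 0.94, and its adjusted exact permutation p of 0.167 was not under 0.05. Of 420 alternative values, 394 kept their direction and side of the threshold (for counts, stayed within 1.5 times). P4ha3, with 0 to 30 counts, is limited by depth.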
